A study of Mus musculus with 18 samples.

Results

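The comparison described here asks which effects of Vhl loss in alveolar macrophages differ with the HIF isoform that the cells keep. It is an interaction contrast over 12 of the 18 RNA-seq libraries of the study: the effect of Vhl/Hif1a loss, after which HIF-2α is left, minus the effect of Vhl/Hif2a loss, after which HIF-1α is left, each effect being a knockout against its own control. All 12900 genes that passed a filter on low counts, of 32789 in the table, entered it, and none was chosen on its values. The 4 groups held 3 libraries each, with the genotypes CD11c-Cre_Vhl-Hif1-KO, Control Vhl-Hif1a_flox-flox, CD11c-Cre_Vhl-Hif2-KO and Control Vhl-Hif2a_flox-flox. Hif2a is the labels' name for Epas1, the gene of HIF-2α. The remaining 6 libraries, 3 of CD11c-Cre_Vhl-Hif1-Hif2-KO and 3 of Control Vhl-Hif1-Hif2a_flox-flox, form the triple cross, which is used for values side by side and for the shared estimate of the spread. Both double knockouts share the loss of Vhl and the CD11c-Cre driver, a recombinase active in CD11c-positive cells, which include alveolar macrophages and dendritic cells. The labels name conditional alleles for the controls without saying whether Cre was absent, and nothing in the labels gives strain, sex, age or the animals behind each library. The p-values therefore measure the spread between these libraries, which may be technical. The cells came from airway lavage and were enriched on CD11c beads.

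The von Hippel-Lindau protein, VHL, is the part of a ubiquitin ligase that binds the alpha subunits of hypoxia-inducible factors once prolyl hydroxylases of the EGLN family have marked them in the presence of oxygen. Without VHL the alpha subunits escape degradation, pair with ARNT and bind DNA at sites with the core ACGTG or GCGTG. HIF-1α is best known for raising the enzymes of glycolysis and genes of mitochondrial adaptation, and HIF-2α for sets of targets that differ from tissue to tissue. Alveolar macrophages clear surfactant, are rich in lipid-handling genes, and express little MHC class II compared with dendritic cells.

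Vhl RNA (chromosome 6, 113623959 to 113631633; positions throughout are GRCm38) measured 2.93, 3.09 and 2.62 CPM (normalised counts, scaled for depth and library composition) in the Vhl/Hif1a knockout and 18.7, 18.9 and 13.2 CPM in its control. It measured 1.92, 2.48 and 2.36 CPM in the Vhl/Hif2a knockout and 17.5, 20.1 and 18.6 CPM in its control. Every knockout library lay below every control library in both crosses. The log2 effects were -2.55 ± 0.16 (± SE, as for all log2 values here) and -3.05 ± 0.16, and their difference, 0.50 with a 95% interval of 0.04 to 0.96, did not pass the test (adjusted p = 0.40). A gene is called here at an adjusted p under 0.05 in edgeR's quasi-likelihood test.

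The counts of the other targeted genes do not check their deletions, because a count over a whole gene also holds exons outside a deleted part. Hif1a (chromosome 12, 73901375 to 73947530) measured 206, 209 and 166 CPM in the Vhl/Hif1a knockout against 230.2, 225 and 232 CPM in its control, an effect of -0.24 that was not called. In the Vhl/Hif2a knockout it measured 58.7, 78.6 and 61.6 CPM against 242, 179 and 231 CPM, a fall of -1.71 on the log2 scale, so that the fall in Hif1a RNA was seen in the cross labelled as keeping Hif1a. The difference of the Hif1a effects was 1.47 ± 0.25 (adjusted p = 0.0027). Epas1 (chromosome 17, 86753700 to 86833410) measured 36.8 to 60.4 CPM against 33.2 to 35.9 CPM in the Vhl/Hif1a cross and 48 to 58.6 CPM against 23.2 to 35.1 CPM in the Vhl/Hif2a cross. It rose in the latter (0.97 ± 0.19), the cross labelled as lacking it, and the difference of the effects was not called (-0.51, adjusted p = 0.57). "HIF-2α left" and "HIF-1α left" therefore name the knockouts by their labels alone, and every direction below rests on those labels.

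Total counts ran from 19230452 to 34015320 over the 12 libraries. Control 3 of the Vhl/Hif1a cross stood apart for genes raised by Vhl loss: of 43 genes raised over 8-fold in that cross it was the highest of the 3 controls in 36, at a median of 11.4% of the knockout mean, against 4.59% and 4.79% in controls 1 and 2. Control 1 of the Vhl/Hif2a cross was the highest control in 46 of 85 such genes, at a median of 6.69% against 6.0% and 3.88%. Results that move with these libraries are given with and without them. Control 2 of the triple cross also stood apart. It acts on the double-cross results through the estimate of the spread that all 18 libraries share, and it enters the triple effects directly. The number of genes whose effects differed was 315 with all libraries, 242 without control 3 of the Vhl/Hif1a cross, 278 without control 1 of the Vhl/Hif2a cross, and 516 without control 2 of the triple cross.

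Vhl loss had different effects in the 2 crosses on 315 genes, which is 2.44% of the genes tested, and for 1358 genes at an unadjusted p under 0.05. In 105 of them (0.814% of the genes tested) the difference was positive, that is, the effect was the more positive one with HIF-2α left. In 210 (1.63%) the difference was negative. The effect with HIF-2α left was called for 469 genes (3.64%), and the effect with HIF-1α left for 1895 (14.7%). Both effects were called for 339 genes, 330 of them in the same direction, which is 72.3% of the calls with HIF-2α left and 17.9% of those with HIF-1α left. Across all 12900 genes, which are not independent replicates, the 2 effects correlated at Pearson r = 0.367; they share no library, but the same cell type and the same loss of Vhl.

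The 315 genes fall into classes by which single effects were also called. The largest class, 221 genes, changed with HIF-1α left and had no called effect with HIF-2α left; 158 of them rose and 63 fell. The converse class held 33 genes, of which 19 rose and 14 fell with HIF-2α left. The 2 effects had the same sign in 117 of the 221 genes and in 11 of the 33. A change with 1 isoform "left alone" below therefore means that only that effect was called, not that the other was absent. In 46 genes both effects were called in the same direction but at unequal size, and the effect with HIF-1α left was the larger in 39 of these. In 9 genes the effects were called in opposite directions. In 6 genes, Ms4a7, Vcam1, Clec1b, Dctd, Kyat3 and Adgb (listed after their values were seen), the difference was called and neither effect was. A further 284 genes changed in the same direction in both crosses with no difference shown between the effects, and 97 and 1335 genes had a called effect in the Vhl/Hif1a or the Vhl/Hif2a cross alone without a called difference, so that they cannot be assigned. Leaving out each of the 12 libraries in turn kept the call of the difference for 185 of the 315 genes in all 12 fits. These were 18 of the 33, 127 of the 221, 31 of the 46, all 9 of the opposite genes and 0 of the 6.

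**Figure D1:**
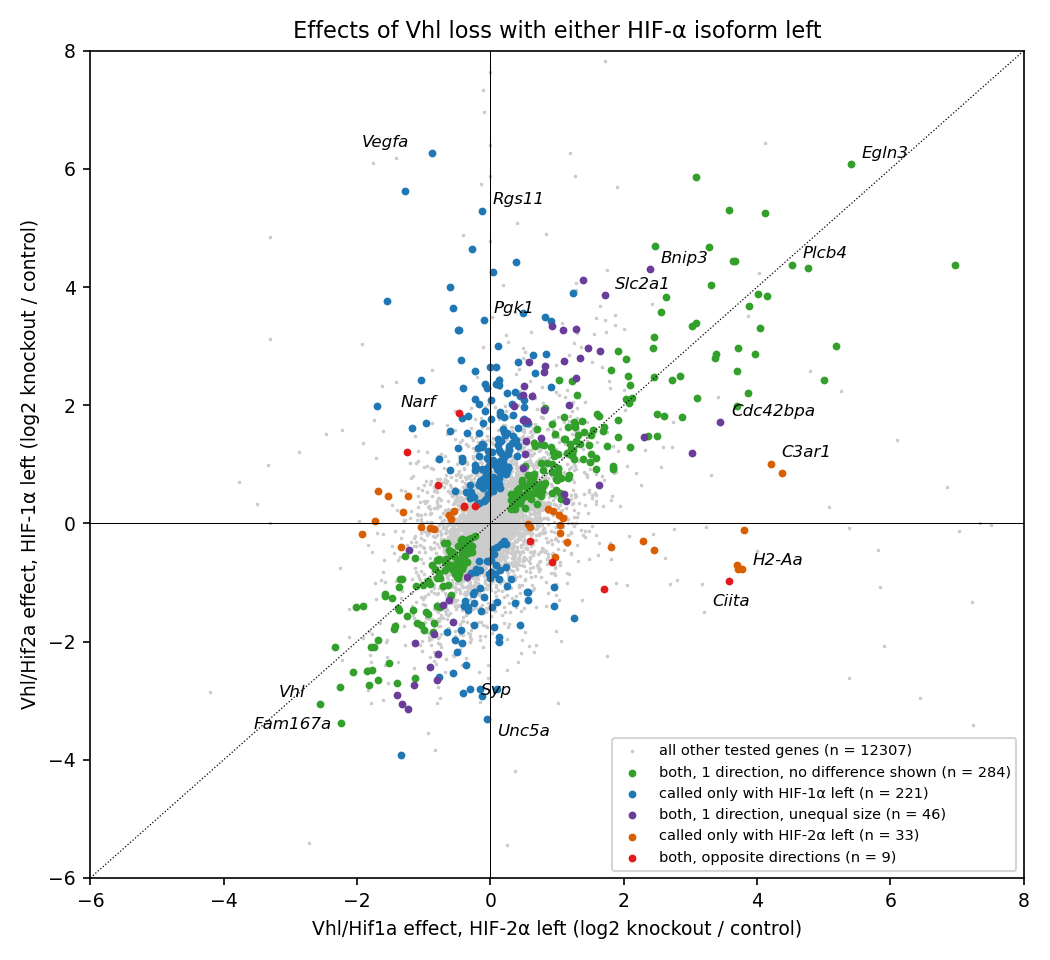
Each point is a gene, with the log2 effect of Vhl/Hif1a loss (HIF-2α left) on the x axis and the log2 effect of Vhl/Hif2a loss (HIF-1α left) on the y axis; colours mark the classes, with 12307 other tested genes in grey, and 6 genes lie outside the axes. MHC class II genes lie to the right and below y = 0, the 158 genes raised with HIF-1α left alone lie in the upper part near x = 0, and the 9 opposite genes lie in the upper left and lower right quadrants.

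All 42 gene lists were chosen with earlier results of these data known, so their counts are descriptions and no independent support. By the count of called genes per list, MHC class II stood first among the lists whose effect was higher with HIF-2α left. Its genes encode the molecules that present peptides to helper T cells, and their helpers. Of 13 class II genes tested, 8 had a positive called difference and 0 a negative one, against 0.814% and 1.63% of all genes tested. With HIF-2α left 8 rose and 0 fell, against 2.22% and 1.42% of all genes tested. With HIF-1α left 0 rose and 4 fell, against 7.68% and 7.01%. The median difference of the list was 2.82 on the log2 scale, against 0.0023 for all genes tested. In bulk RNA, a change in the number of cells of one type and a change in RNA per cell cannot be told apart.

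The class II genes with a called difference and a promoter in the RefSeq table (GRCm38.p6) are shown because they moved together and carry the same letters in a similar place. The called genes Ciita, H2-Ab1 and Cd74 had no promoter in it. Each line is a window of 55 bases, 5′ to 3′ on the strand of the gene, with TGATTGG in capitals, the letters of the Y box, which is an element of class II promoters bound by the factor NF-Y. The windows lie at chr17:34287857-34287911, chr17:34305768-34305822, chr17:34153090-34153144, chr17:34092296-34092350 and chr17:34238808-34238862, in that order, and the motif starts 50, 61, 63, 45 and 59 bases before the start of the gene.
H2-Aa: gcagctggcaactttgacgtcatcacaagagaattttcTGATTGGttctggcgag
H2-Eb1: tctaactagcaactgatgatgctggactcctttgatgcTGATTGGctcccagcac
H2-DMb1: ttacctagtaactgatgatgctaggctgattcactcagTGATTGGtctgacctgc
H2-Oa: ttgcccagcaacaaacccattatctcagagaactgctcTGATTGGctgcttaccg
H2-Ob: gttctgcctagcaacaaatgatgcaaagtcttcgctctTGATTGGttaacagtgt
H2-Aa lies on the minus strand and the others on the plus strand. All 5 promoters of called class II genes in the table held TGATTGG or its reverse complement. So did 2 of the 6 promoters of genes of the class II list that were not called, those of H2-Eb2 and H2-DMb2. The promoters without it were those of H2-DMa, Ctss and Ifi30, and Ctss and Ifi30 encode helpers and no class II chain. Among the promoters of tested genes 1301 of 12670 held it (10.3%). None of the 5 held ACGTG or GCGTG on either strand within the 300 bases of the table. The motif was chosen after the class II values had been seen, and a match is a description of letters.

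Ciita (chromosome 16, 10480059 to 10528418), the coactivator that switches on class II promoters, measured 87.5, 98.3 and 122 CPM in the Vhl/Hif1a knockout and 6.63, 6.39 and 12.5 CPM in its control. In the Vhl/Hif2a knockout it measured 3.97, 5.81 and 6.22 CPM and in that control 7.16, 11.9 and 12.4 CPM. With HIF-2α left all 3 knockout libraries were several times above all controls, and with HIF-1α left all 3 were below them. The effects were 3.59 ± 0.30 and -0.98 ± 0.29, and their difference was 4.56 ± 0.41 (adjusted p = 3.4e-06), the highest among the genes named by rule. Without control 3 of the Vhl/Hif1a cross, the highest of its controls, the difference was 4.95.

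The classical chains moved with it. H2-Aa (chromosome 17, 34282744 to 34287823), the alpha chain of I-A, measured 1162, 1375 and 1319 CPM against 74.4, 53.4 and 155 CPM with HIF-2α left, and 77, 66.6 and 110.4 CPM against 80.2, 176 and 178 CPM with HIF-1α left. Its knockout and control libraries did not overlap in the first cross and overlapped in the second, and the difference was 4.54 ± 0.51 (adjusted p = 3.7e-05; 5.10 without control 3). H2-Ab1 (chromosome 17, 34257689 to 34269419), the partner beta chain, measured 1024, 1229.9 and 1483 CPM against 71.9, 54.8 and 142 CPM, and 109, 108 and 152 CPM against 72.4, 165 and 161 CPM. Its difference was 3.91 ± 0.49. H2-Eb1 (chromosome 17, 34305867 to 34316674), the beta chain of I-E, measured 577, 674 and 782 CPM against 42.5, 31.9 and 80.8 CPM, and 33.8, 34.2 and 52.9 CPM against 49.4, 83.1 and 73.3 CPM, with a difference of 4.48 ± 0.42. Cd74 (chromosome 18, 60803848 to 60812652), the invariant chain that escorts class II to the endosome, measured 4261, 5245 and 5537 CPM against 326, 223 and 610.1 CPM, and 339, 282 and 455 CPM against 328, 686 and 749 CPM, with a difference of 4.41 ± 0.48. For each of these 4 genes the controls of the 2 crosses covered overlapping ranges.

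The peptide-loading helpers divided. H2-Ob (chromosome 17, 34238903 to 34254414) and H2-Oa (chromosome 17, 34092340 to 34095234), the chains of H2-O, which restrains peptide loading, were present at low counts. H2-Ob measured 3.3, 4.99 and 3.24 CPM against 0.422, 0.617 and 1.04 CPM, and 0.562, 0.528 and 1.2 CPM against 1.33, 1.12 and 0.697 CPM, with a difference of 2.91 ± 0.52 (adjusted p = 0.0039). H2-DMb1, a chain of the H2-DM editor of peptides and the only called class II gene outside the naming rule, measured 264, 287 and 334 CPM against 85.7, 77.3 and 89.2 CPM, and 82.9, 77.3 and 82.3 CPM against 80.9, 122 and 117 CPM. Its difference was 2.21 ± 0.20 (adjusted p = 3.5e-06). The 5 class II genes with no called difference were H2-Eb2, H2-DMa, H2-DMb2, Ctss and Ifi30, of which H2-DMa (0.72) and H2-DMb2 (0.72) had the highest differences. The class II count stayed between 8 and 9 when any of the 12 libraries was left out.

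MHC class I genes, which present peptides to cytotoxic T cells, gave 5 positive called differences among 19 tested and 0 negative ones, against 0.814% and 1.63% of all genes tested, at a list median of 0.15. The genes of that list differed in how they reached this. H2-M3, a non-classical class I molecule, had opposite effects and is described below. H2-Q6 (chromosome 17, 35424850 to 35430055) and H2-Q7 (chromosome 17, 35439155 to 35443773), also non-classical, fell with HIF-1α left (-2.02 ± 0.19 and -1.81 ± 0.21) and had no called effect with HIF-2α left, for differences of 1.59 ± 0.26 and 1.36 ± 0.29. They are near-identical copies whose reads can be split by the counting, and the call of H2-Q7 ended without Vhl/Hif2a knockout 1 (1.28, adjusted p = 0.052). Nlrc5 (chromosome 8, 94434356 to 94527272), the class I counterpart of Ciita, fell in both crosses, by -0.91 with HIF-2α left and -2.44 with HIF-1α left, a difference of 1.52 ± 0.28. The classical genes H2-K1 (0.15) and H2-D1 (0.34), named after their values were seen, had no called difference or effect. The fifth called gene, H2-T23 (also named after its values were seen), rose with HIF-2α left alone (0.59; difference 0.65 ± 0.15), with a call that held in 1 of 12 fits with a library left out. Without Vhl/Hif2a knockout 1 the count of class I genes was 3 in place of 5.

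Outside antigen presentation, C3ar1 (chromosome 6, 122847138 to 122856161), the receptor for the complement fragment C3a, had the highest difference among the named genes raised with HIF-2α left alone. It measured 36.5, 52.9 and 45.9 CPM against 1.43, 1.45 and 4.36 CPM in the Vhl/Hif1a cross, and 2.68, 3.73 and 2.96 CPM against 1.64, 2.24 and 0.697 CPM in the Vhl/Hif2a cross. The first groups were far apart and the second close together, although its 3 knockout libraries also lay above its 3 controls, and the difference was 3.19 ± 0.52 (adjusted p = 0.0019; 3.95 without control 3). The gene of its precursor ligand, C3 (chromosome 17, 57203970 to 57228136), fell in both crosses and by more with HIF-1α left: it measured 231, 272 and 304 CPM against 408, 410.0 and 373 CPM, and 123, 165 and 108 CPM against 479, 376 and 409 CPM, with a difference of 1.11 ± 0.20. C4b (chromosome 17, 34728380 to 34743882), another complement component, went the other way with a difference of -2.66 ± 0.60 (adjusted p = 0.023), a call that held in 7 of 12 fits with a library left out (adjusted p up to 0.12). Of 15 complement genes tested, 2 differences were positive and 1 was negative.

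Slc7a2 (chromosome 8, 40862396 to 40922308), a transporter that brings arginine into the cell, measured 1649, 1994 and 1879 CPM against 825, 921 and 921 CPM with HIF-2α left, and 877, 1084 and 1022 CPM against 1113, 1003 and 943 CPM with HIF-1α left. The rise was seen in all 3 libraries of the first knockout, the second groups overlapped, and the difference was 1.09 ± 0.15 (adjusted p = 2.9e-04). Arg1, the arginase that consumes arginine, is given for its place in the same pathway and was chosen after its values were seen: it measured 28.2, 59.2 and 78 CPM against 0.844, 0.132 and 3.43 CPM, and 1.49, 5.34 and 1.14 CPM against 0.256, 0.463 and 0.232 CPM. Both effects were called (5.19 ± 0.66 and 3.01 ± 0.88), but the difference of 2.18 had an interval of -0.53 to 4.88 and was not called (adjusted p = 0.65). Acly (chromosome 11, 100476353 to 100528000), the enzyme that makes cytosolic acetyl-CoA from citrate, measured 835, 936 and 831 CPM against 426, 429.7 and 501 CPM, and 442, 512 and 468 CPM against 384, 411 and 436 CPM. Its difference was 0.73 ± 0.12 (adjusted p = 0.0019).

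Fewer genes were lowered with HIF-2α left alone, and only 3 of these 14 kept the call in all 12 fits with a library left out. Ece1 (chromosome 4, 137862237 to 137965229), the protease that releases active endothelin, measured 1.77, 1.79 and 1.88 CPM against 7.3, 6.3 and 7.06 CPM in the Vhl/Hif1a cross, and 10.9, 8.13 and 11.6 CPM against 7.87, 12.4 and 14.6 CPM in the Vhl/Hif2a cross. Its knockout libraries lay well under every other double-cross library, and the difference was -1.74 ± 0.31 (adjusted p = 0.0037). Cyp4f18 (chromosome 8, 71988482 to 72009626), a fatty acid hydroxylase that inactivates leukotriene B4, had a difference of -0.76 ± 0.16, and Uck2 (chromosome 1, 167222883 to 167285320), a uridine-cytidine kinase, one of -0.67 ± 0.14. Cyp4f18 measured 66.1 to 69.9 CPM in the Vhl/Hif1a knockout against 91 to 107 CPM in its control.

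**Figure D2:**
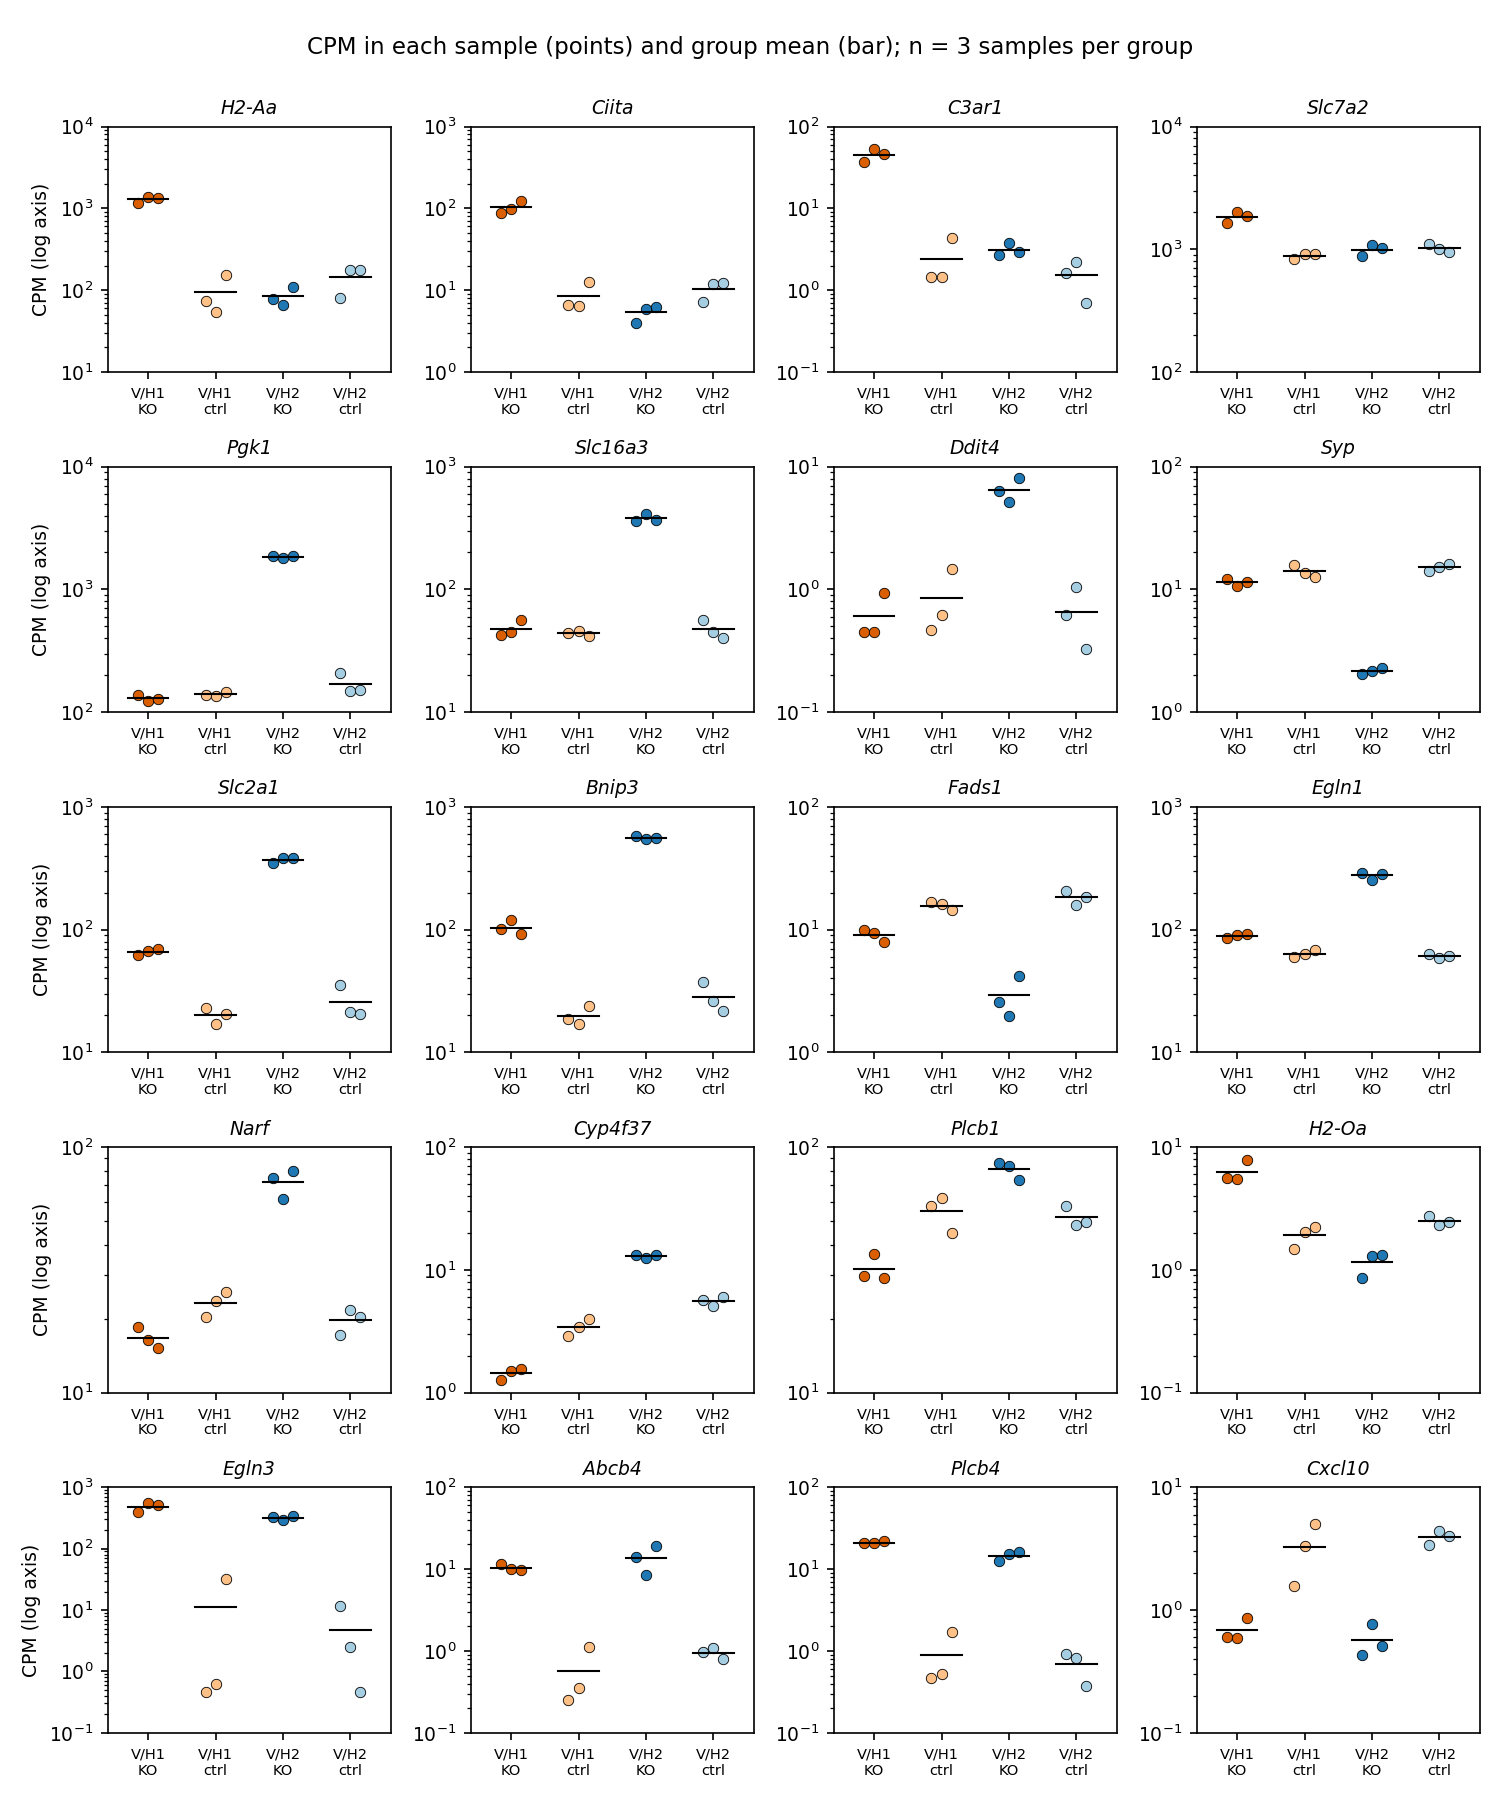
CPM per library on a log axis for 20 genes, 1 panel each, with a point for every library of the 4 double-cross groups (V/H1 is the Vhl/Hif1a cross and V/H2 the Vhl/Hif2a cross) and a bar at the group mean. Reading across the panels, H2-Aa, Ciita, C3ar1 and Slc7a2 stand high in the Vhl/Hif1a knockout alone, Pgk1, Slc16a3 and Ddit4 in the Vhl/Hif2a knockout alone, and Egln3, Abcb4 and Plcb4 in both knockouts, with control 3 of the Vhl/Hif1a cross above the other controls for Egln3 (32.5 CPM).

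By the same count, glycolysis and lactate handling stood first among the lists whose effect was higher with HIF-1α left. Of 26 genes of glycolysis and lactate handling tested, 19 had a negative called difference and 0 a positive one, against 1.63% and 0.814% of all genes tested, and the list median was -1.45. The median effect of the list was 0.33 with HIF-2α left and 1.81 with HIF-1α left. In 11 of the 19 genes there was no called effect with HIF-2α left, and in 8 there was a smaller called rise. The count stayed between 18 and 19 when any of the 12 libraries was left out. The 7 members without a called difference were Slc2a3, Hk3, Pfkm, Pfkfb2, Pfkfb4, Eno2 and Pdk3, of which Eno2 fell with HIF-1α left (-2.07).

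The promoters of 4 genes are shown to let the letters of HIF sites be read beside the values: Pgk1 and Ddit4, raised with HIF-1α left alone, and Narf and H2-M3, which had opposite effects. Each runs 5′ to 3′ on the strand of the gene from 250 bases before to 50 bases after its start (RefSeq, GRCm38.p6), with ACGTG and GCGTG on either strand in capitals, so that CACGT and CACGC mark the other strand. They lie at chrX:106186850-106187149, chr10:59951721-59952020, chr11:121236986-121237285 and chr17:37269984-37270283, on the plus strand but for Ddit4 on the minus strand.
Pgk1: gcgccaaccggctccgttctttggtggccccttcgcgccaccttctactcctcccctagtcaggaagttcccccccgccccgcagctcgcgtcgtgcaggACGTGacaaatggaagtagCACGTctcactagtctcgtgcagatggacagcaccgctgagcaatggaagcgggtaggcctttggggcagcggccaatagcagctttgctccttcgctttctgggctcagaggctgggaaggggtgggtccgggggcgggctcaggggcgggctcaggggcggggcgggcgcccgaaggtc
Ddit4: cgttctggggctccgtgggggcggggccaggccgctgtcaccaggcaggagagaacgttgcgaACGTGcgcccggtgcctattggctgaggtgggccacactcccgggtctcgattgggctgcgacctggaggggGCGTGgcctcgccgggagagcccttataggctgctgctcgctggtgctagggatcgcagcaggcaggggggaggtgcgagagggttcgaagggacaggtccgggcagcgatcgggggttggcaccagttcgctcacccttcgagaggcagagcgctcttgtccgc
Narf: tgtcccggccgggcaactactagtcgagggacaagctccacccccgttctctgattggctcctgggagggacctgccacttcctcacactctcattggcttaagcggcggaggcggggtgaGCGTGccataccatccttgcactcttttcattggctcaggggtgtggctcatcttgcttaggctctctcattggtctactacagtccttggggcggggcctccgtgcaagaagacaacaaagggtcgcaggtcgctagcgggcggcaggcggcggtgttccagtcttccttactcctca
H2-M3: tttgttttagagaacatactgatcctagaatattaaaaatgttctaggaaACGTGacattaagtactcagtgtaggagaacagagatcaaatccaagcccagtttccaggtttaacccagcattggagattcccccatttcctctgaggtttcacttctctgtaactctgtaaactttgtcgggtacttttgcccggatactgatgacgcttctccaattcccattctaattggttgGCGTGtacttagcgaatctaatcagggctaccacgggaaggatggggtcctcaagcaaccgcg
Pgk1, Ddit4 and H2-M3 hold 2 such cores each and Narf holds 1. Only promoters that hold a core are shown, so the presence of the letters in them is no finding. Of the 6 promoters of genes with opposite effects, 3 held ACGTG or GCGTG, and those of H2-Oa, Cyp4f37 and Spn held 0. Among the promoters of all tested genes 25.5% of 12670 held ACGTG on either strand. The share was 36.4% of 151 for the genes raised with HIF-1α left alone, 57.1% of 35 for those raised in both crosses at unequal size, 14.3% of 14 for those raised with HIF-2α left alone, and 23.8% of 181 for those raised in both with no difference shown. Among genes lowered with HIF-1α left alone it was 21.8% of 55. With both cores counted, the order was another: ACGTG or GCGTG was found in 61.1% of all promoters, in 59.6% of those of genes raised with HIF-1α left alone, in 65.7% for genes raised in both at unequal size, in 42.9% for genes raised with HIF-2α left alone and in 53.0% for genes raised in both with no difference shown. For genes lowered with HIF-1α left alone it was 69.1%. The median GC content of these groups of promoters ran from 58.67% to 63.33%, against 60.33% for all, genes with several starts count more than once, and no test was made.

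Pgk1 (chromosome X, 106187100 to 106203699), a glycolytic kinase that makes ATP, measured 1888, 1811 and 1859.8 CPM in the Vhl/Hif2a knockout against 208, 148 and 153 CPM in its control, and 139, 124 and 129 CPM in the Vhl/Hif1a knockout against 138, 135 and 146 CPM in its control. The 3 libraries with HIF-1α left stood far above the other 9, which lay close together, and the difference was -3.55 ± 0.15 (adjusted p = 3.0e-10). Slc16a3 (chromosome 11, 120948480 to 120960868), which exports lactate, measured 361, 415 and 366 CPM against 56.9, 45.2 and 40.2 CPM, and 42.2, 44.6 and 56.5 CPM against 44.3, 46.3 and 41.6 CPM, with a difference of -2.89 ± 0.26. Eno1 (chromosome 4, 150236721 to 150248879), the enolase, measured 1962, 2213 and 2011 CPM against 461, 379 and 426 CPM, and 396, 390.4 and 424 CPM against 416, 388 and 444 CPM, with a difference of -2.33 ± 0.14. For all 3 genes the effect with HIF-2α left was close to 0 and not called (-0.10, 0.12 and -0.04).

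Other steps moved in both crosses at unequal size. Slc2a1 (chromosome 4, 119108711 to 119137983), the glucose transporter GLUT1, measured 62.7, 66.7 and 69.3 CPM against 23, 16.9 and 20.4 CPM with HIF-2α left, and 351, 381 and 386 CPM against 35.3, 21.2 and 20.4 CPM with HIF-1α left. It rose in every knockout library of both crosses, by 1.72 and 3.87, and the difference was -2.15 ± 0.26 (adjusted p = 8.3e-05). Pfkl (chromosome 10, 77986947 to 78010083), the phosphofructokinase of liver type, rose by 0.93 and 3.34 for a difference of -2.42 ± 0.19. Tpi1 (chromosome 6, 124810586 to 124814296), triose phosphate isomerase, rose by 1.09 and 3.28 for a difference of -2.18 ± 0.17. Enzymes of the same pathway therefore sat in different classes, those raised with HIF-1α left alone and those raised in both crosses.

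Glycogen genes gave 5 negative called differences among 14 tested and 0 positive ones, against the same 1.63% and 0.814% of all genes tested, which stand behind the counts of the lists that follow. Pgm1 (chromosome 4, 99929414 to 99987294), the phosphoglucomutase that links glycolysis to glycogen, measured 126, 139 and 126 CPM against 26.6, 23.9 and 25.7 CPM with HIF-1α left, and 22.2, 21.5 and 24.6 CPM against 25.4, 23.1 and 23.3 CPM with HIF-2α left. The groups were far apart in the first cross, overlapped in the second, and gave a difference of -2.43 ± 0.12. Gys1 (chromosome 7, 45434844 to 45456619), glycogen synthase, rose in both crosses (0.58 and 2.73, difference -2.15 ± 0.22). Gbe1 (chromosome 16, 70313949 to 70569716), the branching enzyme, had a called rise with HIF-1α left alone (1.61, difference -1.20 ± 0.25). Its effect with HIF-2α left was 0.41 and not called. Ppp1r3b, a targeting subunit of glycogen phosphatase and named after its values were seen, rose in both crosses with a difference of -0.69 ± 0.13.

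Genes of mitochondrial adaptation and mitophagy gave 5 negative called differences among 14 tested, at a list median of -1.31. Bnip3 (chromosome 7, 138890836 to 138909519), a mitophagy receptor, measured 102, 119 and 91.5 CPM against 18.6, 17.1 and 23.7 CPM with HIF-2α left, and 580.3, 553 and 556 CPM against 37.7, 26.2 and 21.7 CPM with HIF-1α left. It rose in both, and the difference was -1.91 ± 0.24 (adjusted p = 1.1e-04). Fam162a (chromosome 16, 36043761 to 36071594) and Higd1a (chromosome 9, 121848563 to 121858362), small mitochondrial proteins induced by hypoxia, rose with HIF-1α left alone, with differences of -2.21 ± 0.15 and -1.98 ± 0.18. Ndrg1 (chromosome 15, 66929318 to 66969640) rose in both crosses (1.46 and 2.96), for a difference of -1.50 ± 0.29. Lonp1, a mitochondrial protease named after its values were seen, was the fifth, at -0.47 ± 0.12, with a call that held in 1 of 12 fits with a library left out. Against these rises, Ndufa4 (chromosome 6, 11900292 to 11907497), a subunit of cytochrome c oxidase, fell with HIF-1α left: it measured 27.6, 30.1 and 26.6 CPM against 66.3, 79.1 and 79.2 CPM, and 67.6, 64.5 and 74.4 CPM against 78.4, 74.6 and 50.3 CPM. Its difference of 1.44 ± 0.18 was the 1 called difference among 59 genes of oxidative phosphorylation tested.

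Among the oxygen sensors the difference was called for Egln1 and not for Egln2 or Egln3, and the genes were not tested against one another. Egln1 (chromosome 8, 124908587 to 124949324), a prolyl hydroxylase, measured 86.2, 89.7 and 92.5 CPM against 60.3, 62.7 and 68.3 CPM with HIF-2α left, and 287, 256 and 287 CPM against 62.9, 59.1 and 60.9 CPM with HIF-1α left. It rose in both crosses at unequal size, with a difference of -1.69 ± 0.14 (adjusted p = 1.6e-06). Egln3 (chromosome 12, 54178981 to 54203860), another prolyl hydroxylase, measured 391, 548 and 515 CPM against 0.464, 0.617 and 32.5 CPM, and 325, 289 and 335 CPM against 11.5, 2.47 and 0.465 CPM. It rose in both crosses (5.41 ± 1.0 and 6.08 ± 1.06), and its difference of -0.67 had an interval of -3.37 to 2.03. That value turned with the controls: it was 3.72 without control 3 of the Vhl/Hif1a cross and -2.27 without control 1 of the Vhl/Hif2a cross, so neither its size nor its direction is set by these data. Egln2 (-0.22), the remaining family member, had no called effect or difference.

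Enzymes related to the prolyl hydroxylases also differed between the crosses. Of 18 JmjC genes tested, most of which encode histone demethylases that need oxygen and oxoglutarate, 5 had a negative called difference, 0 a positive one, and the count was 5 in each of the 12 fits with a library left out. The 4 named by rule rose with HIF-1α left alone: Kdm4b (chromosome 17, 56326062 to 56402870) had a difference of -1.29 ± 0.19, Jmjd6 (chromosome 11, 116837432 to 116843449) of -1.17 ± 0.14, Kdm3a (chromosome 6, 71588972 to 71632990) of -1.03 ± 0.16 and Kdm5b (chromosome 1, 134560171 to 134635285) of -0.92 ± 0.18. The fifth, Kdm2a, named after its values were seen, had -0.71 ± 0.09. Collagen-modifying enzymes gave 2 among 13, P4ha1 (chromosome 10, 59323296 to 59373304), a collagen prolyl hydroxylase, at -1.13 ± 0.17 and Plod1 (chromosome 4, 147909753 to 147936767), a lysyl hydroxylase, at -0.96 ± 0.13.

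Angiogenic and vasoactive factors gave 1 positive and 2 negative called differences among 15 tested. The 2 negative ones were those of Vegfa and of the protease gene Ece1, described above, which fell with HIF-2α left (-1.93). Vegfa (chromosome 17, 46016993 to 46032369), the vascular endothelial growth factor, measured 85.7, 60.5 and 86.5 CPM in the Vhl/Hif2a knockout against 2.15, 0.849 and 0.0929 CPM in its control. In the Vhl/Hif1a cross it measured 0.113, 0 and 0.274 CPM in the knockout and 0.169, 0.441 and 0.116 CPM in the control, close to the limit of detection in all 6 libraries. The log2 difference of -7.15 ± 1.39 (adjusted p = 0.0075) was the lowest named, but its size rests on those few counts, and without control 2 of the Vhl/Hif1a cross it was -6.42 at an adjusted p of 0.144. The list of genes reported elsewhere as HIF-2α targets gave 1 called difference among 13, that of Vegfa, in the direction of HIF-1α left. Vash1 (chromosome 12, 86678700 to 86692091), an inhibitor of angiogenesis, fell in both crosses with a difference of 1.49 ± 0.37, a call that held in 3 of 12 fits with a library left out (adjusted p up to 0.13).

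Outside glycolysis, several of the lowest differences among the named genes belonged to genes at low level in the controls. Rgs11 (chromosome 17, 26202951 to 26211324), a regulator of G-protein signalling, measured 39.2, 45.4 and 32.7 CPM in the Vhl/Hif2a knockout against 1.53, 0.965 and 0.511 CPM, and 0.376, 0.372 and 0.274 CPM in the Vhl/Hif1a knockout against 0.464, 0.176 and 0.463 CPM. It was near absent outside the 3 libraries with HIF-1α left, and the difference was -5.42 ± 0.54 (adjusted p = 8.9e-06). Tnfsf9 (chromosome 17, 57105325 to 57107757), the ligand of the costimulatory receptor 4-1BB, measured 5.89, 4.13 and 4.87 CPM against 0.256, 0.232 and 0.0929 CPM, and 0.113 to 0.43 CPM against 0.116 to 0.529 CPM, with a difference of -4.92 ± 0.87. It was the 1 called gene among 12 of costimulation. Vmn2r26 (chromosome 6, 124024568 to 124065806), a receptor known from the vomeronasal organ, measured 8.4, 12.6 and 7.08 CPM against 0.511, 0.502 and 0.279 CPM, and 0.43 to 0.559 CPM against 0.193 to 0.617 CPM, with a difference of -4.04 ± 0.70. Adra2a (chromosome 19, 54044151 to 54048982), an adrenergic receptor, measured 11.1, 8.97 and 8.94 CPM against 1.48, 2.01 and 1.91 CPM, and 0.559 to 0.86 CPM against 1.06 to 2.04 CPM, with a difference of -3.45 ± 0.47.

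Ddit4 (chromosome 10, 59949669 to 59951834), a brake on mTOR induced by stress, measured 6.29, 5.15 and 8.04 CPM against 0.613, 1.04 and 0.325 CPM with HIF-1α left, and 0.451, 0.447 and 0.938 CPM against 0.464, 0.617 and 1.47 CPM with HIF-2α left. The groups were apart in the first cross and overlapped in the second, for a difference of -3.75 ± 0.68 (adjusted p = 0.0040). Among 22 genes of amino acid stress and mTOR brakes tested it was 1 of 3 with a negative called difference. The others were Shmt2 (chromosome 10, 127517123 to 127522444), the mitochondrial serine hydroxymethyltransferase (-1.03 ± 0.18), and Eif4ebp1 (chromosome 8, 27260329 to 27276674), an inhibitor of translation (-1.05 ± 0.23, not called without Vhl/Hif1a knockout 1 or Vhl/Hif2a knockout 1, at adjusted p-values of 0.060 and 0.052). Mthfd1l (chromosome 10, 3973118 to 4167081), a mitochondrial enzyme of the folate cycle, measured 17, 28.1 and 18.7 CPM against 5.37, 2.43 and 1.67 CPM, and 1.21 to 1.75 CPM against 1.86 to 2.35 CPM, with a difference of -3.21 ± 0.45. Ddah1 (chromosome 3, 145758675 to 145894277), which breaks down an inhibitor of nitric oxide synthase, measured 2.75, 2.05 and 4.48 CPM against 0.971, 0.463 and 0.929 CPM, and 0.526, 0.223 and 0.274 CPM against 1.56, 1.1 and 0.694 CPM. Its effects were -1.70, not called (adjusted p = 0.052), and 1.98, called, for a difference of -3.68 ± 0.62.

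Genes lowered with HIF-1α left alone numbered 63, and 32 of them kept the call in all 12 fits. Syp (chromosome X, 7638471 to 7653256), the vesicle protein synaptophysin, measured 2.05, 2.17 and 2.27 CPM in the Vhl/Hif2a knockout against 14, 15.3 and 16.2 CPM, and 12.1, 10.7 and 11.4 CPM in the Vhl/Hif1a knockout against 16, 13.7 and 12.6 CPM. Its difference was 2.50 ± 0.16 (adjusted p = 4.8e-08). Unc5a (chromosome 13, 54949411 to 55006018), a netrin receptor, measured 0.827, 0.838 and 0.658 CPM against 7.56, 7.41 and 8.22 CPM, and 3.91 to 6.18 CPM against 4.47 to 5.46 CPM, with a difference of 3.26 ± 0.39. Pdpn (chromosome 4, 143267431 to 143299564), the membrane glycoprotein podoplanin, measured 0.827, 0.993 and 0.957 CPM against 7.87, 6.48 and 5.07 CPM, and 3.91 to 6.72 CPM against 4.67 to 5.19 CPM, with a difference of 2.89 ± 0.34. In these 3 genes the libraries with HIF-1α left were the lowest of the 12. Nat8l (chromosome 5, 33995984 to 34005916), the enzyme that makes N-acetylaspartate, had a difference of 2.45 ± 0.40. Fmnl2 (chromosome 2, 52857860 to 53133804), a formin that builds actin filaments, had one of 2.36 ± 0.48. Part of the Fmnl2 difference came from an effect of 0.96 with HIF-2α left, which was not called. Its fall with HIF-1α left was -1.40.

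The genes of the unequal class that were higher with HIF-2α left form a mixed group. Cdc42bpa (chromosome 1, 179960472 to 180165603), a kinase downstream of CDC42, rose in both crosses and by more with HIF-2α left: it measured 213, 329 and 316 CPM against 16.8, 22.5 and 39.1 CPM, and 60.7, 61.6 and 64.5 CPM against 21.2, 17.4 and 18.6 CPM. Its difference was 1.74 ± 0.32 (adjusted p = 0.0051). The others named fell in both crosses and by more with HIF-1α left. Fads1 (chromosome 19, 10182888 to 10196877), a fatty acid desaturase, measured 9.84, 9.35 and 7.86 CPM against 16.7, 16 and 14.4 CPM, and 2.58, 1.99 and 4.16 CPM against 20.8, 15.7 and 18.4 CPM, with a difference of 1.84 ± 0.28. Mfsd6 (chromosome 1, 52656286 to 52727462), a membrane protein of the major facilitator family, had a difference of 1.75 ± 0.23, and Gbp3 (chromosome 3, 142560026 to 142573209), an interferon-induced GTPase, one of 1.42 ± 0.23. Gbp3 was the 1 called difference among 37 interferon-response genes tested. In the opposite direction, Nrn1 (chromosome 13, 36725361 to 36735131), neuritin, measured 1.92, 1.6 and 1.84 CPM against 0.675, 0.573 and 0.771 CPM, and 19.1, 21 and 24.1 CPM against 1.18, 1.54 and 0.929 CPM, with a difference of -2.73 ± 0.31.

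In all, 9 genes (0.0698% of those tested) changed in opposite directions, and the difference of each was called in all 12 fits with a library left out. Besides Ciita, H2-Oa measured 5.56, 5.47 and 7.82 CPM against 1.48, 2.03 and 2.24 CPM with HIF-2α left and 0.86, 1.3 and 1.32 CPM against 2.76, 2.32 and 2.46 CPM with HIF-1α left. It rose in the first cross and fell in the second, with no overlap of knockouts and controls in either (1.71 and -1.11; difference 2.82 ± 0.39). H2-M3 (chromosome 17, 37270220 to 37274484) measured 30.9, 30.7 and 35.5 CPM against 21.8, 20.9 and 21.7 CPM, and 17.7, 19.3 and 18.5 CPM against 21.9, 24 and 22 CPM, with a difference of 0.89 ± 0.12. Scml4 (chromosome 10, 42860370 to 42960780), a gene of the Polycomb family, measured 16.4, 14.7 and 16.7 CPM against 8.69, 8.85 and 7.71 CPM, and 5.43, 5.15 and 5.74 CPM against 10.4, 7.84 and 7.39 CPM, with a difference of 1.57 ± 0.26. These 4 genes rose with HIF-2α left and fell with HIF-1α left.

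The other 5 went the opposite way. Narf (chromosome 11, 121237253 to 121255856), a protein that binds prelamin A, measured 18.5, 16.4 and 15.2 CPM against 20.3, 23.6 and 25.8 CPM with HIF-2α left, and 74.8, 61.5 and 80.1 CPM against 17.2, 21.6 and 20.4 CPM with HIF-1α left, with a difference of -2.34 ± 0.17 (adjusted p = 3.1e-07). Cyp4f37 (chromosome 17, 32621309 to 32636184), a cytochrome P450, measured 1.28, 1.49 and 1.56 CPM against 2.91, 3.39 and 3.97 CPM, and 13.1, 12.4 and 13.3 CPM against 5.72, 5.09 and 5.99 CPM, with a difference of -2.45 ± 0.26. Plcb1 (chromosome 2, 134786067 to 135475258), a phospholipase C, measured 29.8, 36.6 and 29.2 CPM against 57.7, 62.1 and 44.5 CPM, and 86.3, 84.1 and 73.4 CPM against 57.5, 48.1 and 49.6 CPM, with a difference of -1.43 ± 0.22. For Cyp4f37 and Plcb1 both single effects were called in all 12 fits with a library left out. Tgm2 (chromosome 2, 158116402 to 158146436), a transglutaminase, and Spn (chromosome 7, 127132232 to 127137823), the sialoglycoprotein CD43, moved little: the effects of Tgm2 were -0.40 and 0.30 (difference -0.70 ± 0.13) and those of Spn -0.23 and 0.29 (difference -0.52 ± 0.09). In 7 of the 9 genes at least 1 of the single effects lost its call without some library, so that the direction of the smaller effect is less firm than the difference. The smaller effect of Ciita, with HIF-1α left, lost its call in 5 of the 12 fits.

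The shared changes were those of 170 genes that rose and 114 that fell in both crosses with no difference shown. In this class the median half-width of the 95% interval of the difference was 0.479 on the log2 scale, before adjustment over all genes. A call needs an adjusted p, so differences above that size could also go uncalled. Examples in this class are Ankrd37 (-1.13, adjusted p = 0.59) and Fam167a (1.14, adjusted p = 0.23). The median effects of the 170 were 1.16 with HIF-2α left and 1.25 with HIF-1α left, and those of the 114 were -0.66 and -0.75. In 124 of the 284 both effects were called in all 12 fits with a library left out. Plcb4 (chromosome 2, 135659011 to 136014593), a phospholipase C, measured 20.9, 20.6 and 21.8 CPM against 0.464, 0.529 and 1.7 CPM, and 12.6, 15.1 and 16.3 CPM against 0.92, 0.811 and 0.372 CPM. Its effects were 4.52 ± 0.31 and 4.38 ± 0.32, with a difference of 0.14 and an interval of -0.88 to 1.16. Abcb4 (chromosome 5, 8893717 to 8959231), a phospholipid exporter, measured 11.5, 10.1 and 9.7 CPM against 0.253, 0.352 and 1.12 CPM, and 13.9, 8.41 and 19.1 CPM against 0.971, 1.08 and 0.79 CPM, with a difference of 0.29 and an interval of -1.05 to 1.62. Both intervals reach past a difference of 1 in at least 1 direction, and neither shows that the effects were equal.

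Other genes raised in both crosses were Ankrd37 (chromosome 8, 45996902 to 46005707), an ankyrin-repeat gene induced by hypoxia, with effects of 4.12 and 5.25, Nhsl2 (chromosome X, 101849385 to 102092055), with 4.02 and 3.87, and Topaz1 (chromosome 9, 122747346 to 122802135), a gene known from germ cells, with 3.88 and 3.68. The intervals of their differences were -2.42 to 0.16, -1.29 to 1.58 and -0.55 to 0.94. Without control 3 of the Vhl/Hif1a cross the differences of Plcb4, Abcb4 and Topaz1 moved to 1.02, 1.24 and 0.64. Among the genes lowered in both, Cxcl10 (chromosome 5, 92346638 to 92348889), a chemokine for T cells, measured 0.601, 0.596 and 0.86 CPM against 1.56, 3.3 and 5.01 CPM, and 0.43, 0.776 and 0.508 CPM against 3.37, 4.4 and 4.04 CPM. Its difference was 0.51 with an interval of -0.57 to 1.59. Ifit1 (chromosome 19, 34640871 to 34650009), an interferon-induced RNA-binding protein, fell by -1.75 and -2.09, Adgre4 (chromosome 17, 55749984 to 55853662), an adhesion receptor of macrophages, by -1.85 and -2.49, Spsb1 (chromosome 4, 149896283 to 149955043), a ubiquitin ligase adaptor, by -1.82 and -2.73, and Fam167a (chromosome 14, 63436394 to 63465498) by -2.24 and -3.37. The intervals of Spsb1 (0.17 to 1.66) and Fam167a (0.27 to 2.0) lie above 0 before adjustment over all genes, and their adjusted p-values were 0.29 and 0.23.

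In some lists many genes passed the test in a single cross while few or none had a called difference. Of all genes tested, 1.42% fell and 2.22% rose with HIF-2α left, and 7.01% fell and 7.68% rose with HIF-1α left. Of 37 interferon-response genes 7 fell with HIF-2α left and 21 with HIF-1α left, yet 1 difference, that of Gbp3, was called and the list median was 0.23. Of 24 mitosis genes 5 fell with HIF-2α left and 19 with HIF-1α left, and 0 differences were called, at a list median of 0.22; Mki67 had 0.55 (adjusted p = 0.44) and Top2a 0.37 (adjusted p = 0.63). Of 25 genes of DNA replication 0 fell with HIF-2α left and 15 with HIF-1α left, again with 0 called differences. Of 50 ribosomal protein genes 18 rose with HIF-1α left and 0 with HIF-2α left, at a median difference of -0.13 and 0 called differences. For these lists more genes passed the test in 1 cross than in the other, and the difference between the crosses itself passed for none of their genes but Gbp3. Called differences made up 2.44% of all genes tested, so 0 or 1 in lists of this size is close to that share.

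Cholesterol synthesis and uptake (24 genes tested), the tricarboxylic acid cycle and fatty acid oxidation (36), iron handling and oxidative stress (22), coagulation (16), and the Myc and Mxd network (11) also had 0 called differences. Of all genes tested 2.44% had one, so 0 in lists of this size is close to that share. The same share stands beside the counts below. In lipid handling 2 of 31 differences were called, both negative: Hilpda (chromosome 6, 29272488 to 29275446), a lipid-droplet protein induced by hypoxia, at -1.13 ± 0.27, and Fabp1 (chromosome 6, 71199827 to 71205023), a fatty acid binding protein, at -0.66 ± 0.16, called in 4 and 3 of the 12 fits with a library left out. Among 34 lysosomal genes Ctsl (chromosome 13, 64359337 to 64370890), a protease, was higher (0.51 ± 0.11) and Smpd1 (chromosome 7, 105554360 to 105558389), acid sphingomyelinase, lower (-0.69 ± 0.14). Cytokines and chemokines gave Il12b (chromosome 11, 44400063 to 44414033; 2.64 ± 0.63), a chain of interleukin-12, and Ccr7 (chromosome 11, 99144196 to 99155077; 2.04 ± 0.45), a receptor for homing to lymph nodes, as positive differences, out of 16 and 22 genes tested, called in 4 and 6 of the 12 fits. The adjusted p in those fits reached 0.10 for Hilpda, 0.13 for Fabp1, 0.10 for Il12b and 0.062 for Ccr7. Ctsl was called in 7 of the 12 (up to 0.069) and Smpd1 in 11, its call ending without Vhl/Hif2a knockout 1.

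**Figure D3:**
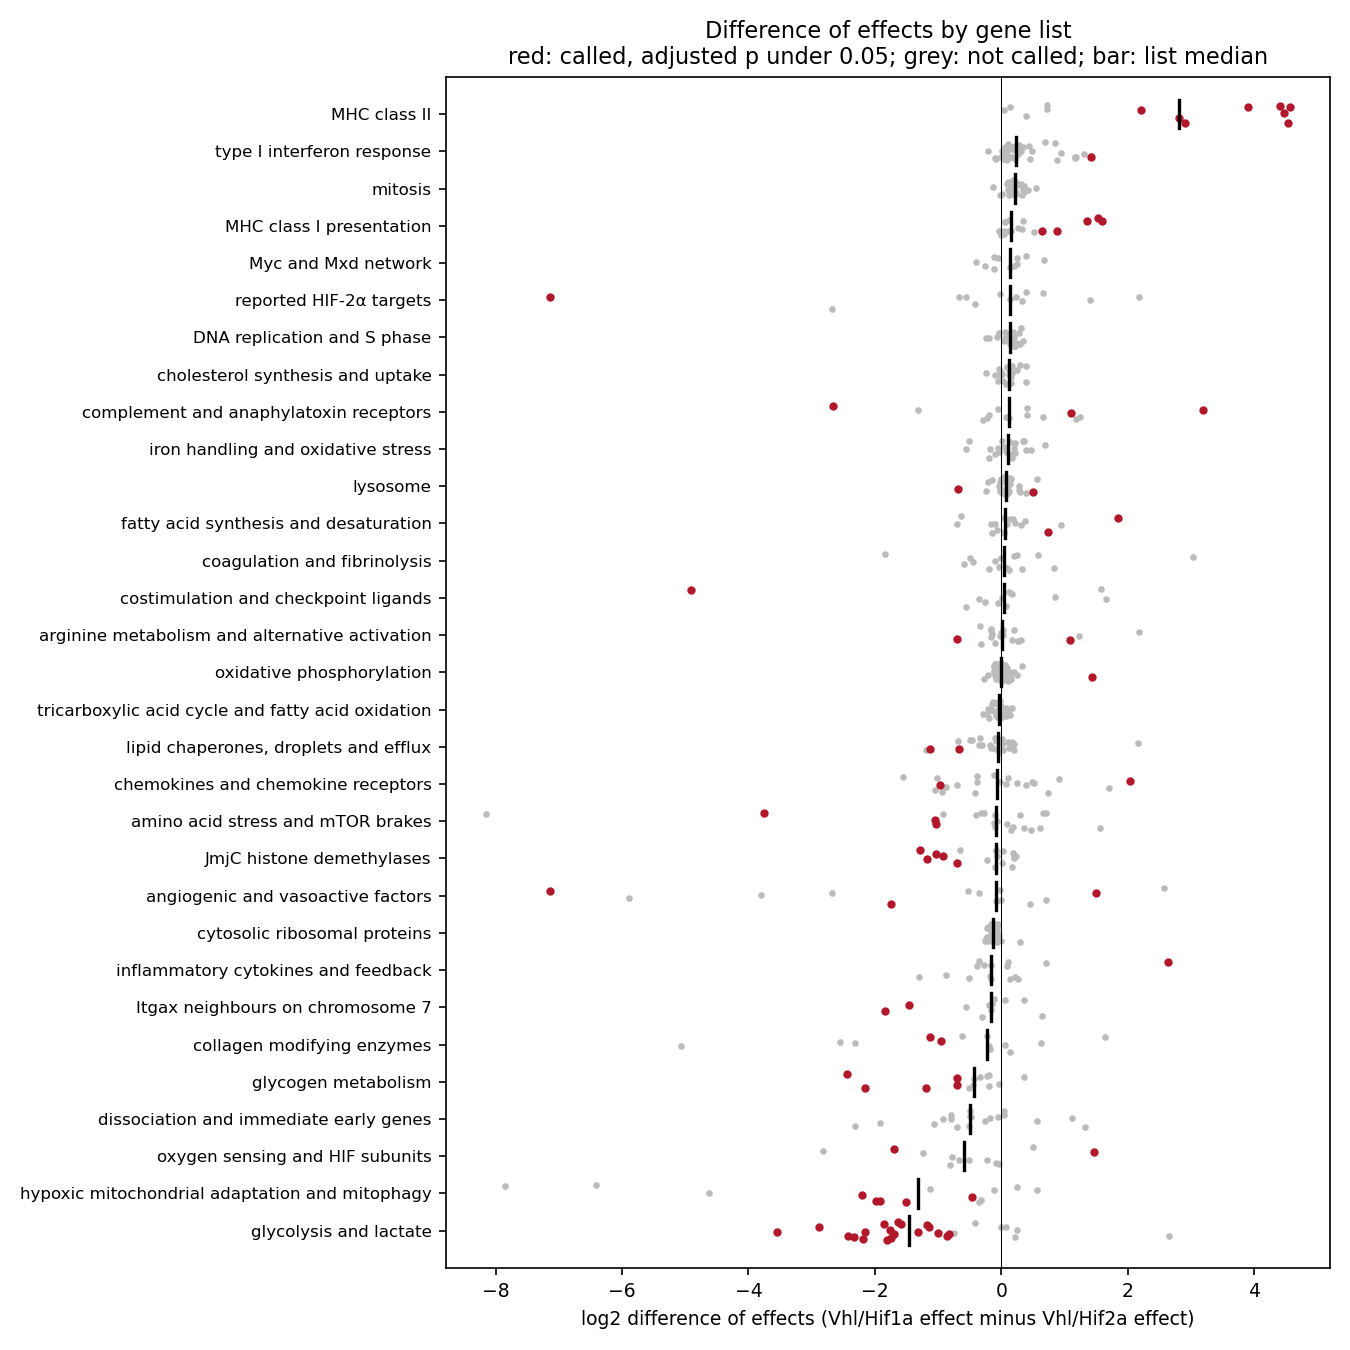
Log2 difference of effects (Vhl/Hif1a minus Vhl/Hif2a) of every tested member of the lists shown, 1 row per list, with called members in red, the others in grey and a bar at the list median. MHC class II lies to the right of 0 with a median of 2.82, glycolysis and lactate to the left with a median of -1.45, and mitosis near 0 with a median of 0.22.

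The triple cross, in which both HIF genes are lost with Vhl by its labels, gave values for the same genes with no library shared. It differs from the double crosses in sex as read from RNA: Xist measured 291 to 745 CPM in the 12 double-cross libraries and at most 0.377 CPM in the triple cross, where the Y-linked gene Ddx3y measured 47.3 to 110.1 CPM. Sex and cross therefore cannot be told apart in any comparison with it. The triple effect was called for 5 genes (0.0388% of those tested, with 4 higher, 0.031%, and 1 lower, 0.00775%; 1484 at an unadjusted p under 0.05, and 11 by DESeq2), and for 0 of the 254 genes that changed with 1 isoform left alone. The median triple effect was -0.15 for the 19 genes raised and 0.03 for the 14 lowered with HIF-2α left alone, and -0.05 and -0.03 for the 158 raised and 63 lowered with HIF-1α left alone. Ciita had a triple effect of -0.62 ± 0.29, H2-Aa of -0.82 ± 0.35, Pgk1 of -0.01 ± 0.10 and Bnip3 of 0.21 ± 0.17, none called. The shared class held 2 genes called in it, Vhl (-2.56) and Plcb4: Plcb4 measured 30.5, 24.8 and 30.8 CPM in the triple knockout and 0.263, 0.166 and 0.305 CPM in its control, an effect of 6.83 ± 0.37. Itgam (chromosome 7, 128062640 to 128118491), an integrin chain encoded near Itgax, the CD11c gene, rose in all 3 crosses (1.34, 2.80 and 1.25) and by more with HIF-1α left (difference -1.47 ± 0.29). Its triple effect was called by edgeR at an adjusted p of 0.035. Without control 2 of the triple cross 3 triple effects were called, 0 of them among the 315 genes, so that Itgam lost that call. Its neighbour Itgad (chromosome 7, 128154376 to 128223816) had a difference of -1.84 ± 0.28 and a triple effect of 0.56, and the other 9 tested genes of that stretch, Itgax among them, had no called difference.

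**Figure D4:**
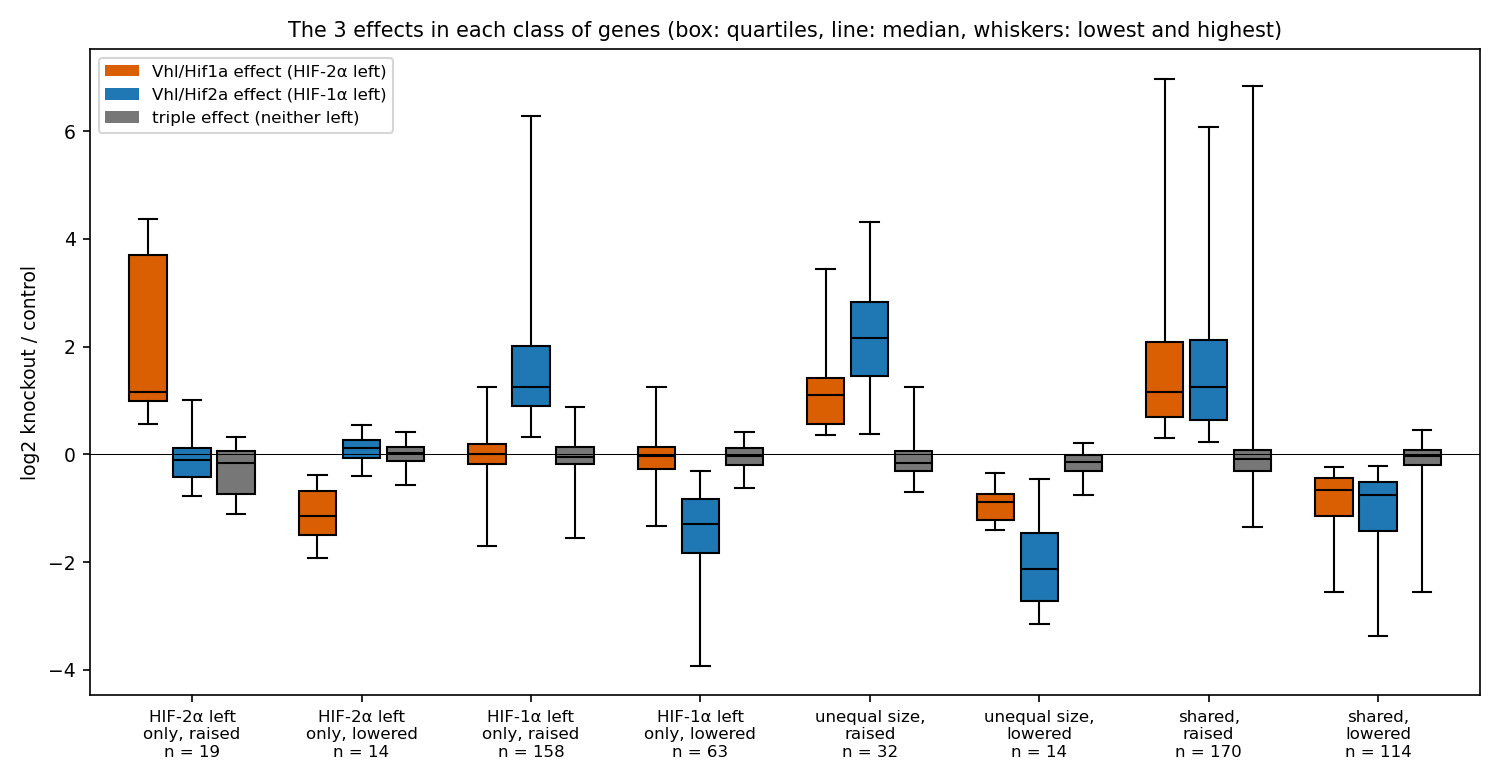
Log2 effects (y axis) in the Vhl/Hif1a, Vhl/Hif2a and triple crosses (colours) for the genes of each class, split by direction (x axis); boxes span the quartiles, lines mark medians, and whiskers reach the lowest and highest gene. In every isoform-only class the median triple effect lies between -0.15 and 0.03.

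Markers of alveolar macrophages and of other cells were read in the same libraries. The summed level of 28 alveolar macrophage markers was 47030 to 53744 CPM in the Vhl/Hif1a knockout against 41580 to 43420 CPM in its control, and 49832 to 51276 CPM against 40539 to 43447 CPM in the Vhl/Hif2a cross. Of these markers 2 had a called difference, Fabp1 and Bhlhe40 (chromosome 6, 108660629 to 108666925; -0.63 ± 0.12), a transcription factor. Of 14 dendritic cell markers, listed because such cells also carry CD11c and class II, 13 were tested. They summed to 130 to 141 CPM against 140 to 164 CPM with HIF-2α left. With HIF-1α left they summed to 149 to 186 CPM against 160 to 228 CPM. Of their differences 1, that of Ccr7, was called. With HIF-2α left 0 of these 13 rose and 0 fell, close to the 2.22% and 1.42% of all genes tested. With HIF-1α left 0 rose and 5 fell, against 7.68% and 7.01%. The median effects of the 13 were -0.43 with HIF-2α left and -1.17 with HIF-1α left, at a median difference of 0.72. Of the 13 tested monocyte and interstitial macrophage markers 3 rose and 0 fell with HIF-2α left. With HIF-1α left 3 of them rose and 2 fell. The 13 tested of 19 monocyte and interstitial macrophage markers summed to 313 to 397 CPM against 206 to 229 CPM, and to 237 to 288 CPM against 136 to 162 CPM. The sums were higher in both knockouts, but a sum rests most on its abundant members. Ly6c2, Folr2, Lyve1, Plac8 and Tmem119 were among the markers under the filter. The median effects of the 13 tested markers were -0.09 with HIF-2α left and -0.15 with HIF-1α left. Their 2 called differences were those of Itgam and Ms4a7 (chromosome 19, 11321039 to 11336146; -1.03 ± 0.26, called in 1 of 12 fits with a library left out). The 7 tested of 13 neutrophil markers summed to 77.4 to 88.5 CPM against 156 to 166 CPM with HIF-2α left and to 127 to 158 CPM against 123 to 204 CPM with HIF-1α left, with Ly6g, Elane, Mpo, Camp and Ngp under the filter and 0 called differences. Lung epithelial markers, 8 of 14 tested, summed to 159 to 210 CPM over the Vhl/Hif1a cross and to 395 to 559 CPM over the Vhl/Hif2a cross, and 0 of 15 T and NK cell markers passed the filter. The part of these cells in the differences was not tested. The 2 control groups, compared with each other, differed in 44 genes (0.341%), 12 higher (0.093%) and 32 lower (0.248%) in the controls of the Vhl/Hif1a cross.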

How the data were processed

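RNA was sequenced from polyA libraries made with a directional kit, 18 in all, per the labels' protocols. The values the authors deposited were taken for expected counts per gene, estimates that need not be whole: 89.3% of the values were whole and column totals differed. Per the submitters' processing notes the reads passed through FastQC, cutadapt and STAR on GRCm38; these notes name no versions, and the counting tool, annotation and use of strand were not found in the labels, so reads of overlapping or antisense genes may be shared. No column belonged to other samples.

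The expected counts were rounded, filtered with edgeR's filterByExpr over the 6 groups (12900 genes tested and 19889 not; the former held 99.967% of counts), scaled by TMM and fitted with edgeR's quasi-likelihood model, with 1 coefficient per group and a common estimate of the spread over the 18 libraries. The contrast was (Vhl/Hif1a knockout minus control) minus (Vhl/Hif2a knockout minus control), with Benjamini-Hochberg adjustment over all genes and a threshold of 0.05. The SE was taken as the log2 value divided by the square root of F, which is approximate, and intervals are at 95%. CPM used the scaled library sizes. No label mentions molecular identifiers, so intervals do not cover PCR error. The contrast was tested on simulated data. Positions came from GENCODE M21 (12882 of 12900 genes matched) and promoters from RefSeq (GRCm38.p6; 9962 of 12889 symbols matched). R 4.3.3, edgeR 4.0.16, limma 3.58.1 and DESeq2 1.42.0 were used.

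Named genes were Vhl, Hif1a and Epas1; among called genes (mean CPM 1 or more) whose call held in all 12 fits with a library left out, at a log2 value within 1.5 times, the 8 highest and 8 lowest differences and up to 5 per class and direction; the 6 highest and 6 lowest stable shared genes; and up to 4 called members per list and direction, or 2 of high CPM where a list had none. Genes outside the rule are said to be. Some genes the rule names are not reported here. The comparison and all 42 lists (848 symbols) were chosen with earlier results of these data known. Alternatives were DESeq2, RLE and total-count scaling, 2 other filters, a fit on 12 libraries, robust dispersion, a block on replicate number within each cross, stricter thresholds, and leaving out each of the 12 libraries. Leaving out control 2 of the triple cross was added after seeing the data.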

Additional observations from a re-analysis of the deposited data

Results flagged for a closer look

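In all, 9 genes had called effects in opposite directions in the 2 crosses, and for each the difference between the effects was itself called by edgeR with n = 3 libraries per group; all 9 are opposite by the class rule, and the differences are log2 values, Vhl/Hif1a effect minus Vhl/Hif2a effect. Ciita, the class II coactivator, had a difference of 4.56, H2-Oa of 2.82, Scml4 of 1.57 and H2-M3 of 0.89. On the other side stood Cyp4f37 at -2.45, Narf at -2.34, Plcb1 at -1.43, Tgm2 at -0.70 and Spn at -0.52. The count of 9 such genes was 4 to 11 when each of the 12 libraries was left out. It was 4 without Vhl/Hif2a knockout 1 and 5 without Vhl/Hif2a knockout 3. Single effects that lost their call in some of these fits were those of Ciita (Vhl/Hif2a, 5 of 12), Narf (Vhl/Hif1a, 4), Scml4 (Vhl/Hif2a, 4), H2-M3 (Vhl/Hif2a, 3), H2-Oa (Vhl/Hif2a, 1, without Vhl/Hif2a knockout 1, adjusted p = 0.082), Tgm2 (5 and 9) and Spn (Vhl/Hif1a, 12). Both effects of Plcb1 and Cyp4f37 were called in all 12.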

How the results depend on the processing

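No called result changed direction under any setting tried, while differences that were not called, those of Egln3, Plcb4, Abcb4, Nhsl2 and Topaz1 among them, changed sign under some. Scaling by RLE or total counts, 2 other filters and robust dispersion gave 311, 317, 319, 329 and 312 differing genes against 315, and a fit on the 12 double-cross libraries gave 375, 292 of them shared. DESeq2 called 492 differing genes (all 315 among them; 203 higher), 11 in the triple cross, 88 between the controls, 57 with HIF-2α left only, 76 shared at unequal size, 17 opposite and 18 with a difference only, and the absence of a filter gave 10 of the last. The labels do not say whether replicate numbers pair the samples. Deviations of same-numbered libraries correlated at -0.218 to 0.200, and those of differently numbered ones at -0.252 to 0.193. With 3 libraries per group these values cannot decide whether the samples were paired. With a replicate block within each cross 194 genes differed, 191 of the 315 among them, 61 higher and 133 lower; the classes held 21 (HIF-2α left only), 140 (HIF-1α left only), 26 (unequal), 5 (opposite) and 2 (difference only), and all 315 genes had the same sign. Among the calls it ended were those of Cyp4f18, Fmnl2, Vash1, Il12b, Ccr7, C4b, Hilpda, Fabp1, Ctsl and Ms4a7, and the fit on 12 libraries those of Il12b and Fabp1. Without control 2 of the triple cross, added after seeing the data, 516 differed (209 higher), 841 changed with HIF-2α left and 2888 with HIF-1α left, 3 were called in the triple cross, and the classes held 60, 343, 85 and 20, with 499 shared and no difference shown. At an adjusted p under 0.01, 156 differed (53 higher, 103 lower), 255 and 1054 changed in the 2 crosses, 3 in the triple cross and 19 between controls, and the classes held 19, 111, 21, 2 and 3, with 146 shared. Asking for a log2 size of at least 1 left 197 (64 higher, 133 lower), 210 and 686, and classes of 19, 143, 16, 2 and 17, with 121 shared. Leaving out each library gave 216 to 280 differing genes (70 to 104 higher, 146 to 188 lower), 282 to 513 and 1227 to 1856 in the 2 crosses, 3 to 5 in the triple cross and 21 to 42 between controls. The classes ranged over 18 to 36 (HIF-2α left only), 148 to 195 (HIF-1α left only), 25 to 44 (unequal), 4 to 11 (opposite), 1 to 8 (difference only) and 180 to 278 (shared). Single libraries moved counts by over 1.5 times: without Vhl/Hif1a knockout 2, knockout 3 or control 2 the Vhl/Hif1a effect had 299, 300 and 282 calls, without Vhl/Hif2a knockout 1 the Vhl/Hif2a effect had 1227, and without Vhl/Hif1a control 1, control 2 or knockout 3 the unequal class held 26, 25 and 26. Without Vhl/Hif1a knockout 2 there were 18 genes with HIF-2α left only and 182 shared, and without control 2 there were 180 shared. The cause was not tested. Counting each named gene once per setting, 93 of the log2 differences lost their call, 11 gained one, 10 uncalled ones moved by more than their SE and 2488 did neither. At 3 libraries per group and 19230452 to 34015320 counts, the median half-width of the interval of a difference was 0.431 over all genes.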
